A study of Mus musculus with 16 samples.

Results

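The genes described here encode the Meis, Pbx and Pknox homeodomain proteins, the DNA-binding partners of the Hox proteins. They were taken from the deposited expression table by gene symbol: Meis1, Meis2, Meis3, Pbx2, Pbx3, Pbx4, Pknox1 and Pknox2, which are 8 of the 24221 genes of the table, with 20 of its 33701 RefSeq transcripts. RNA was isolated from embryoid bodies (EBs), aggregates in which embryonic stem (ES) cells differentiate, made from the R1 mouse ES cell line. The EBs had grown without Lif for 4 days when retinoic acid (RA) was added, and were sampled just before that addition (day 0) and after 4 days in 2 µM RA (day 4). A group without RA at the later time was not analysed here, so RA and the extra 4 days in culture cannot be told apart, and both days share the 4 days of aggregation without Lif. The procedure was carried out in 2 replicates, and the RNA of each replicate and day was portioned into 4 vials of 1 library each, which gave 4 RNA samples and 8 libraries per day. The vials received synthetic mouse RNAs in mix 1, 2 or 3 or none of them (called mix 4), together with ERCC control RNAs. Since the vials of a sample hold the same RNA, each RNA sample counts once and n = 2 per day throughout.

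Meis, Pbx and Pknox proteins belong to the TALE homeodomain class, named for 3 extra residues in a loop of the homeodomain. Pbx proteins bind DNA together with Hox proteins and sharpen their choice of sites, while Meis and Pknox proteins bind Pbx through their amino-terminal part, hold it in the nucleus and join the Hox complexes. Retinoic acid turns on the Hox clusters from their 3′ ends, and Meis1 and Meis2 are known as RA-responsive genes of the developing limb and hindbrain.

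Values are FPKM, fragments relative to transcript length and to the mapped fragments of the library. The scaling by length lets levels of different genes be set side by side. It does not remove effects of base composition, which differed between the libraries as described below. Summed over all transcripts, the libraries held 411090 to 622888 FPKM, with 20509 to 22110 transcripts above 0. The number of fragments behind each value was not used here, so the depth per gene is unknown and no counting interval is given. A gene's level is the sum over its transcripts. The libraries of a day resembled each other closely except for the mix 3 and mix 4 vials of day 0 RNA 2. These 2 libraries correlated with each other at r = 0.993 over 11602 genes, but with the mix 1 vial of the same RNA at only 0.831 and 0.859, whereas that mix 1 vial correlated with the 4 vials of RNA 1 at 0.990 on average. They also differed by base composition. Transcripts with 59.4% to 72.3% GC, set against those with 29.8% to 39.9% GC (695 transcripts each), lay 2.44 and 1.91 lower on the log2 scale than their average over all libraries in these 2 vials, between 1.22 and 2.76 higher in the other 6 libraries of day 0, and between 0.37 and 1.70 lower at day 4. Results are therefore given with and without the mix 3 and mix 4 vials of day 0 RNA 2.

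**Figure D1:**
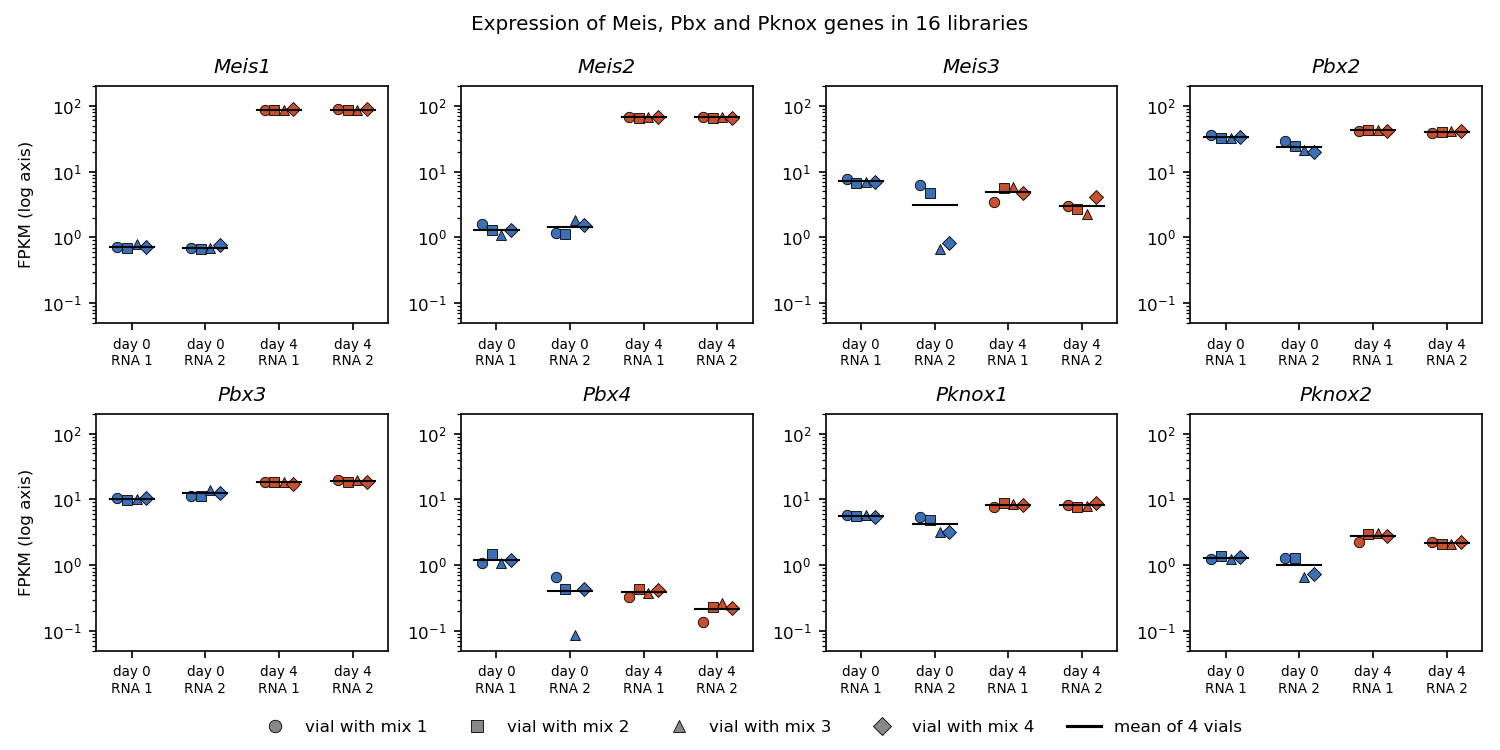
FPKM of the 8 genes on a log axis in the 16 libraries, grouped by RNA sample. Symbols mark the vial's mix, blue is day 0, red is day 4, and lines are means of 4 vials. The day 4 libraries of Meis1 and Meis2 all lie above 64 FPKM and their day 0 libraries below 2 FPKM, while the triangle and diamond of day 0 RNA 2 lie low for Meis3, Pknox1 and Pknox2.

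Of the 8 genes, Meis1 showed the largest change. At day 0 its level was 0.720, 0.690, 0.786 and 0.715 FPKM in the vials of RNA 1 and 0.689, 0.658, 0.688 and 0.774 FPKM in those of RNA 2. At day 4 the vials of RNA 1 gave 87.2, 85.8, 87.0 and 89.4 FPKM, and those of RNA 2 gave 89.2, 86.2, 87.7 and 88.5 FPKM. The days were thus far apart, and the libraries within a day nearly alike, including the 2 vials that differ in base composition. Mean FPKM rose 123-fold, from 0.715 ± 0.0180 to 87.6 ± 0.369 (SD, n = 2). The log2 fold change of log2(FPKM + 0.1), a scale that understates the change of low genes, was 6.75 with a standard error of 0.16 (limma, adjusted p = 0.00462 over all 20542 genes tested). In these bulk samples, more cells that express a gene and more RNA of it per cell cannot be told apart.

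Meis2, the closest relative of Meis1, changed in the same direction. Its day 0 libraries lay between 1.08 and 1.81 FPKM (median 1.28), with the highest value in the mix 3 vial of RNA 2, and its day 4 libraries between 64.3 and 68.6 FPKM (median 66.8). The groups did not overlap, and at day 4 the means of the RNA samples, 66.86 and 66.92 FPKM, were almost the same. The mean rose 49.0-fold, from 1.36 ± 0.0765 to 66.9 ± 0.0414 FPKM (SD, n = 2), and on the log2 scale by 5.52 (standard error 0.15, adjusted p = 0.00462 by limma). Without the mix 3 and mix 4 vials of day 0 RNA 2 the log2 fold changes were 6.78 for Meis1 and 5.66 for Meis2. Leaving out either RNA sample of day 4 gave 6.75 for Meis1 and 5.52 for Meis2 in either case but ended both calls, with an adjusted p between 0.0751 and 0.0815.

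Meis3 behaved differently from its relatives. The vials of day 0 RNA 1 gave 7.72, 6.80, 6.95 and 6.93 FPKM, and those of RNA 2 gave 6.24, 4.71, 0.669 and 0.822 FPKM, the last 2 from the vials that stand apart. The day 4 libraries lay between 2.30 and 5.94 FPKM (median 3.82), within the range of day 0. Meis3 therefore varied more between splits of the same RNA than between the days. Its log2 fold change was -0.27 (standard error 0.52, 95% confidence interval -1.73 to 1.18, adjusted p = 0.697 by limma), and -0.67 (adjusted p = 0.133) without those 2 vials. The transcripts of Meis3 hold 58.1% to 59.2% GC, against 45.7% to 46.7% for Meis1 and 46.4% to 50.3% for Meis2. With FPKM corrected per library for GC content, the sign turned and Meis3 was called higher at day 4 (log2 fold change 1.203, adjusted p = 0.00344), so these data give no direction for Meis3 that holds across the processing.

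Of the Pbx genes in the list, Pbx2 was the most abundant at both days. The vials of day 0 RNA 1 gave 36.1, 32.7, 32.7 and 33.6 FPKM, those of RNA 2 gave 28.8, 24.9, 21.5 and 19.6 FPKM, and the day 4 libraries lay between 38.0 and 42.9 FPKM (median 41.5). All libraries of day 4 were higher than all of day 0, but the RNA samples of day 0 were far apart. The means were 28.8 ± 7.12 and 41.2 ± 1.50 FPKM (SD, n = 2), a log2 difference of 0.54 (standard error 0.23) that missed the threshold (limma, adjusted p = 0.144). It also missed it with the replicate as a block (adjusted p = 0.0521) and without the vials that stand apart (adjusted p = 0.0562), and passed it with the GC correction (log2 fold change 1.40, adjusted p = 0.0410). NM_017463, the only Pbx2 transcript of the table, holds 55.6% GC.

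Pbx3 was higher at day 4 by a smaller factor. Its day 0 libraries gave 10.3, 9.87, 10.0 and 10.5 FPKM for RNA 1 and 11.2, 11.4, 14.0 and 12.7 FPKM for RNA 2, and the day 4 libraries lay between 17.3 and 19.97 FPKM (median 18.3). The highest day 0 value, again the mix 3 vial of RNA 2, stayed below the lowest value of day 4. The mean rose 1.65-fold, from 11.3 ± 1.51 to 18.6 ± 0.783 FPKM (SD, n = 2), or by 0.73 on the log2 scale (standard error 0.17, limma, adjusted p = 0.0493). This call lies at the threshold: over 19 alternative settings the log2 fold change stayed between 0.59 and 0.99, the adjusted p ranged from 1.04e-05 to 0.330, and 9 settings called the gene. With the replicate block the adjusted p was 0.0169, and without the vials that stand apart it was 0.00536.

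Pbx4, which is known mainly from the testis, was low throughout. The vials of day 0 RNA 1 lay between 1.08 and 1.47 FPKM, those of RNA 2 between 0.0880 and 0.659 FPKM, and the day 4 libraries between 0.136 and 0.431 FPKM. The days overlapped through RNA 2 of day 0. The log2 fold change was -1.05 (standard error 0.58, limma, adjusted p = 0.236). With the replicate block it passed the threshold (adjusted p = 0.0196), without the vials that stand apart it did not (-1.23, adjusted p = 0.0908), and with the GC correction it was -0.05 (adjusted p = 0.823). NM_001024954, its only transcript, holds 57.2% GC.

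The Pknox genes (also called Prep) encode a further group of Pbx partners, which are expressed in many tissues. Pknox1 gave 5.76, 5.64, 5.70 and 5.35 FPKM in the vials of day 0 RNA 1, 5.45, 4.81, 3.25 and 3.23 FPKM in those of RNA 2, and between 7.61 and 8.71 FPKM (median 8.17) at day 4. Pknox2 gave 1.25, 1.38, 1.23 and 1.33 FPKM for day 0 RNA 1, 1.30, 1.27, 0.669 and 0.726 FPKM for RNA 2, and between 2.07 and 3.10 FPKM (median 2.25) at day 4. For both genes all day 4 libraries were above all day 0 libraries, and the mix 3 and mix 4 vials of RNA 2 were the lowest of day 0. The log2 fold changes of 0.74 for Pknox1 (standard error 0.22, adjusted p = 0.0760 by limma) and 1.05 for Pknox2 (standard error 0.28, adjusted p = 0.0624) missed the threshold. Both passed it with the replicate block (adjusted p = 0.0310 and 0.0181) and without the vials that stand apart, where the log2 fold changes were 0.60 and 0.88 (adjusted p = 0.0108 and 0.0192).

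**Figure D2:**
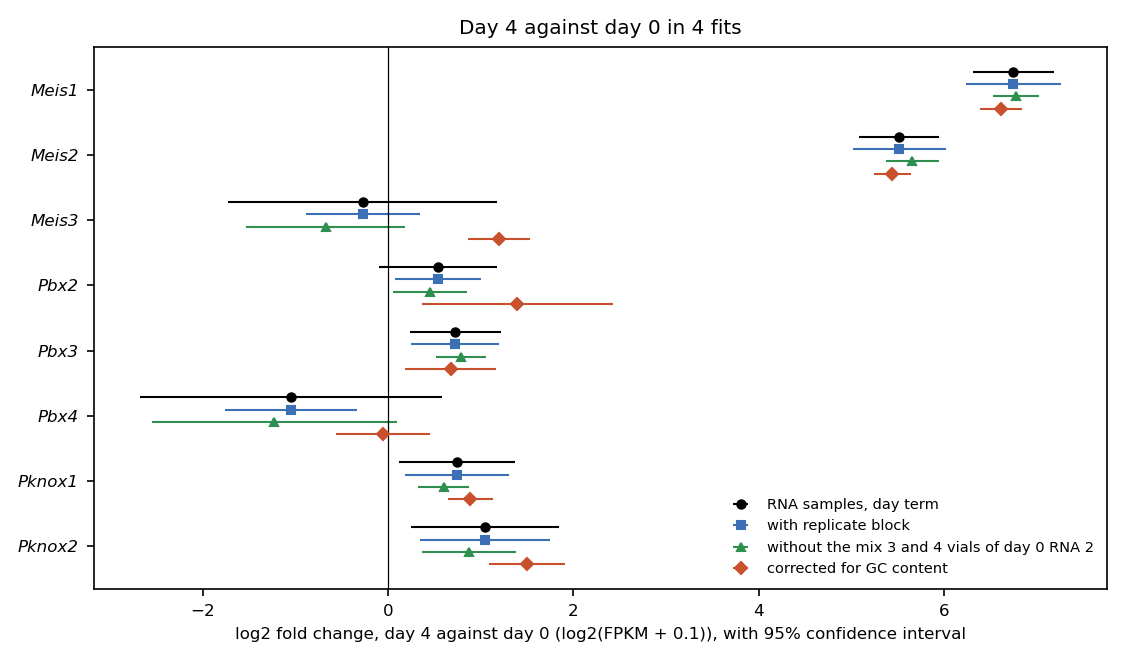
Log2 fold change of each gene, day 4 against day 0, as points with 95% confidence intervals, in 4 fits: the 4 RNA samples with day as the only term, the same with a replicate block, without the mix 3 and mix 4 vials of day 0 RNA 2, and with FPKM corrected for GC content. Meis1 and Meis2 lie above 5 in all 4 fits, while Meis3 lies below 0 in 3 fits and at 1.203 after the GC correction.

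In all, 3 of the 8 genes were called higher at day 4 (Meis1, Meis2 and Pbx3) and 0 lower, where the same test called 16% of the 20542 genes higher and 14.5% lower. The replicates come from repeats of the whole procedure, so the fit with the replicate as a block is given beside it. That fit assumes that the replicate numbers pair the samples of the days. With it 5 of the 8 genes were called higher and 1, Pbx4, lower, against 22.5% and 29.1% of all genes. Without the vials that stand apart, 5 were higher (Meis1, Meis2, Pbx3, Pknox1 and Pknox2) and 0 lower, against 27% and 33.5% of all genes. With the GC correction, 7 were higher and 0 lower, Pbx4 being the exception, against 27.3% and 24.1% of all genes. Counted without a test, 6 of the 8 genes had all day 4 libraries above all day 0 libraries and 0 had them all below, compared with 19.8% and 14.6% of all genes. Over the 8 genes the median log2 fold change was 0.74, and over all genes tested it was -0.03. Rescaling each library to the same sum moved the median of all genes to 0.09, and that of genes with a mean of at least 1 FPKM from -0.15 to 0.12. Under that scaling, which called 18.3% of all genes higher and 13.8% lower, Pbx2, Pknox1 and Pknox2 were called higher with Meis1 and Meis2, and Pbx3 was not (log2 fold change 0.99, adjusted p = 0.0648).

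The order of the 8 genes changed with the day. At day 0 Pbx2 (28.8 FPKM) was first, followed by Pbx3 (11.3), Meis3 (5.11), Pknox1 (4.90), Meis2 (1.36), Pknox2 (1.14), Pbx4 (0.807) and Meis1 (0.715). Libraries of Meis3 and Pknox1 overlapped at day 0, as did those of each neighbouring pair from Meis2 down to Meis1. At day 4 the order was Meis1 (87.6 FPKM), Meis2 (66.9), Pbx2 (41.2), Pbx3 (18.6), Pknox1 (8.19), Meis3 (3.99), Pknox2 (2.47) and Pbx4 (0.302), and of the neighbours only Meis3 and Pknox2 overlapped. By these means Meis1 moved from the last place to the first. The order at day 0 did not hold in every library. In the mix 3 vial of RNA 2, Meis3 (0.669 FPKM) lay below Meis1 (0.688 FPKM) and Meis2 (1.81 FPKM). The genes differ in GC content, and no order was made from FPKM corrected for it.

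Summed by class, the Meis genes gave 7.18 ± 2.76 FPKM at day 0 and 158 ± 0.941 at day 4 (SD, n = 2). Pbx2, Pbx3 and Pbx4 together gave 40.8 ± 6.18 and 60.1 ± 0.846 FPKM, and the Pknox genes 6.04 ± 1.23 and 10.7 ± 0.542 FPKM. The Meis genes made up 12.8% ± 2.92 of the sum over the 8 genes at day 0 and 69.1% ± 0.290 at day 4, and the 3 Pbx genes 76.1% ± 3.21 and 26.2% ± 0.102. The ratio of Meis to Pbx FPKM lay between 0.0888 and 0.211 in the day 0 libraries, lowest in the 2 vials that stand apart, and between 2.55 and 2.76 at day 4. These sums are descriptions, made after the levels of the single genes were known, and cover only the genes listed. Neither the sums nor the ratio were corrected for GC content.

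**Figure D3:**
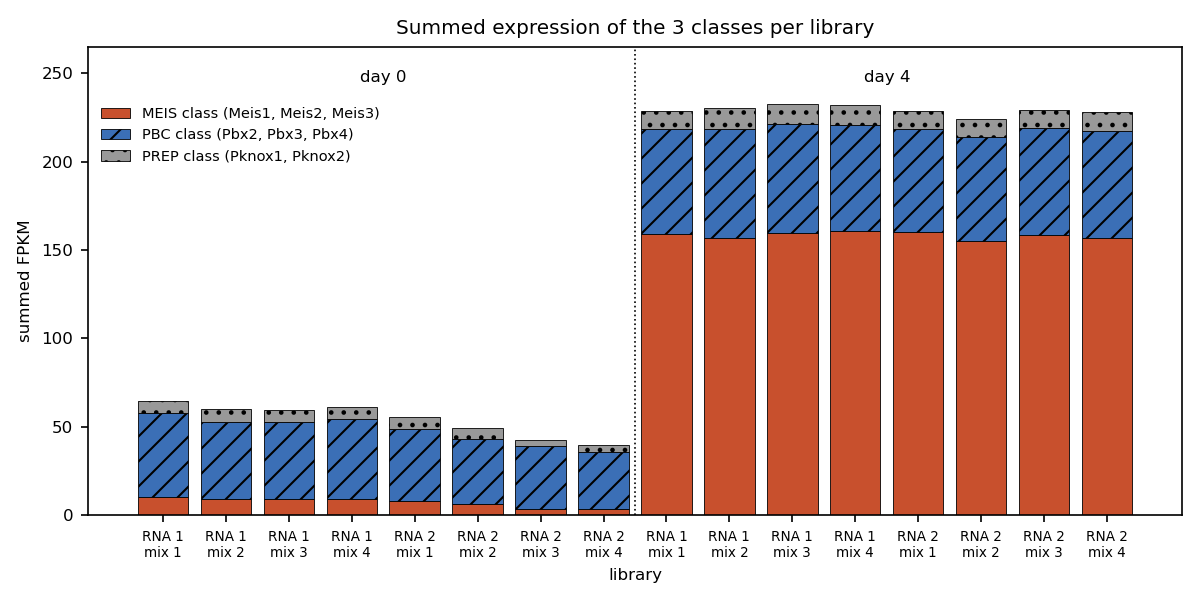
Summed FPKM of the Meis, Pbx and Pknox genes, stacked, in each of the 16 libraries (axis from 0). The sum over the 8 genes is 39.9 to 64.6 FPKM at day 0 and 224 to 233 FPKM at day 4, and the Meis part makes up most of the difference.

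Alternative exons divide the transcripts of Meis1, Meis2 and Pbx3 into proteins with different carboxyl-terminal ends. In Meis1 (chromosome 11, 18879817 to 19018985, minus strand, GRCm38) a 95-base exon, number 12 of 13, is present in NM_001193271 and absent from NM_010789. Its coding part lies at chr11:18884027-18884082. The exon shifts the reading frame and brings the stop codon, so the protein with it has 390 residues and the one without it 465, and they part at residue 373, after the homeodomain, whose DNA recognition helix ends at residue 327. Meis2 (chromosome 2, 115863064 to 116065839, minus strand) has an exon of the same length with its coding part at chr2:115866849-115866904, present in 4 of its 6 RefSeq transcripts. NM_001136072 with the exon encodes 394 residues and NM_010825 without it 470, which part at residue 377. The coding parts of the exons, read here from the GRCm38 genome, are printed because they decide which end of the protein is made and are nearly the same in both genes. They match at 53 of 56 bases (94.6%), while the whole exons match at 82 of 95 (86.3%), and the bases that differ are in capitals:
Meis1 exon 12, coding part: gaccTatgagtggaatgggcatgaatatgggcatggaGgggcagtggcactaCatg
Meis2 exon 12, coding part: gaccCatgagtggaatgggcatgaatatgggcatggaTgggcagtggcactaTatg

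Both Meis1 transcripts rose at day 4. NM_001193271, with the exon, lay between 0.295 and 0.720 FPKM at day 0 and between 68.7 and 84.5 FPKM at day 4 (log2 fold change 6.76, standard error 0.20, limma, adjusted p = 0.0155 over all 28213 transcripts tested). NM_010789, without it, lay between 0 and 0.393 FPKM at day 0, where the mix 3 vial of RNA 2 was highest, and between 4.89 and 18.98 FPKM at day 4 (5.74, standard error 0.56, adjusted p = 0.0180). The form with the exon was the main one at day 4. It held 91.8% of Meis1 FPKM in RNA 1 and 83.9% in RNA 2, and the single vials ranged from 78.4% to 94.5%. At day 0 it held 94.8% and 77.0%, at a total below 1 FPKM, with 42.9% in the mix 3 vial of RNA 2 and between 83.6% and 100% in the 6 libraries other than the 2 that stand apart. The share differed between the days by 1.94 percentage points, less than between the RNA samples of a day. Without the vials that stand apart RNA 2 of day 0 held 92.0%, and the difference turned to -5.55 percentage points. Shares were given as values and not tested.

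All 6 Meis2 transcripts were called higher in the main fit. The exon-containing NM_001136072 reached 29.8 ± 5.20 FPKM at day 4 (SD, n = 2, log2 fold change 5.67, adjusted p = 0.0155 by limma) and NM_001159567 reached 19.2 ± 0.818 FPKM (5.71, adjusted p = 0.0166). Of those without the exon, NM_010825 reached 10.2 ± 4.10 FPKM (4.50, adjusted p = 0.0185) and NM_001159568 reached 7.44 ± 1.99 FPKM (4.93, adjusted p = 0.0384). The remaining pair, NM_001159569 and NM_001159570, stayed at 0.0690 and 0.113 FPKM on average at day 4, and their libraries overlapped between the days although the test called them (adjusted p = 0.0322 and 0.0281). NM_001159569 was called in 9 of 18 alternatives, NM_001159570 in 13 of 18 and NM_001159568 in 12 of 19. The other Meis2 transcripts were called in 13 to 16 of 19. Transcripts with the exon held 80.0% of Meis2 FPKM in day 4 RNA 1 and 67.2% in RNA 2, and the vials of RNA 2 alone ranged from 58.9% to 81.2%. At day 0 they held 79.7% in RNA 1 and 39.9% in RNA 2, and 0% in the mix 3 vial of RNA 2. Without the vials that stand apart the share at day 0 RNA 2 was 71.2%, and the difference between the days went from 13.8 to -1.86 percentage points. NM_001136072 and NM_001159567 also start further upstream than NM_010825 and NM_001159568 in the annotation, so their share reflects the start of the transcript as well as the exon.

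The alternative exon of Pbx3 (chromosome 2, 34171457 to 34373142, minus strand) is exon 7 of 9 in NM_016768, lies at chr2:34176749-34176861 and is absent from NM_001290576. It is coding over all of its 113 bases, and without it the protein has 351 residues in place of 434 and differs from residue 338 on, after the homeodomain. It is shown because it separates the form of Pbx3 that differed more between the days from the one that differed less:
Pbx3 exon 7: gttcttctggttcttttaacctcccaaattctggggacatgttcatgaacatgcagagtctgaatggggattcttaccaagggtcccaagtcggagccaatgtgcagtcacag
NM_001290576, without the exon, gave 3.80, 4.62, 3.75 and 4.02 FPKM in the vials of day 0 RNA 1 and 4.39, 4.64, 10.5 and 7.35 FPKM in those of RNA 2, and lay between 8.55 and 13.4 FPKM at day 4. The mix 3 vial of day 0 RNA 2 thus reached day 4 levels. The log2 fold change was 1.09 (standard error 0.33, limma, adjusted p = 0.0984), 1.37 without the 2 vials that stand apart (adjusted p = 0.00933) and 1.09 with the replicate block (adjusted p = 0.0260). NM_016768, with the exon, lay between 3.53 and 6.80 FPKM at day 0 and between 5.21 and 9.73 FPKM at day 4 (log2 fold change 0.31, adjusted p = 0.339).
The transcript with the exon held 60.3% of Pbx3 FPKM in day 0 RNA 1 and 45.5% in RNA 2, which was 60.0% in its mix 1 and mix 2 vials and 33.2% in its mix 3 and mix 4 vials. At day 4 it held 45.2% in RNA 1 and 33.9% in RNA 2. The difference between the days was -13.3 percentage points, and the mix 1 and mix 2 vials of day 0 RNA 2 lay 26.8 points above its mix 3 and mix 4 vials. Without the latter pair the difference between the days was -20.5 percentage points. It was not tested. Both Pbx3 transcripts have close to the same base composition (48.9% and 48.1% GC), and the part of the library differences in this shift was not tested.

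**Figure D4:**
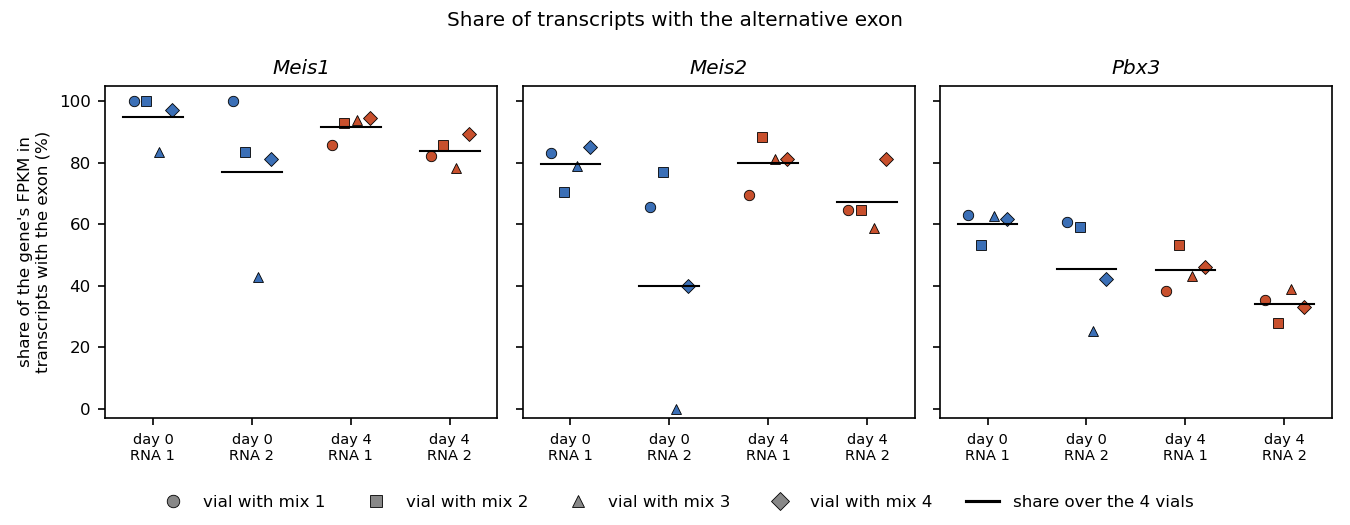
Share of a gene's FPKM (in %) in transcripts with the alternative exon, for Meis1, Meis2 and Pbx3, per library (symbols, by mix) and over the 4 vials of an RNA sample (lines). The mix 3 vial of day 0 RNA 2 is the lowest of its gene in all 3 panels, at 42.9%, 0% and 25.2%.

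The other genes with several transcripts had 1 main form. NM_016670 of Pknox1 held 90.3% ± 7.32 of the gene's FPKM at day 0 and 97.7% ± 0.903 at day 4 (SD, n = 2), and missed the threshold at 0.86 log2 (limma, adjusted p = 0.0574). It passed with the replicate block (adjusted p = 0.0447) and without the vials that stand apart (adjusted p = 0.00859). NR_027493, the non-coding form of Pknox1, lay at most at 0.979 FPKM. Both matched the same annotated structure, so their separate values, shares and calls are uncertain. NM_001029838 of Pknox2 held 73.6% and 82.5%, and NM_008627 of Meis3 held 73.6% and 62.1%. NM_001029838 lay between 0.482 and 1.16 FPKM at day 0 and between 1.43 and 2.66 FPKM at day 4, without overlap, and missed the threshold (log2 fold change 1.18, standard error 0.34, limma, adjusted p = 0.0891), which it passed in 5 of 19 alternatives. NM_148950, the other Pknox2 transcript, lay between 0.168 and 0.456 FPKM at day 0 and between 0 and 0.947 FPKM at day 4, and did not pass the test (log2 fold change 0.42, limma, adjusted p = 0.349). NM_001277988 and NM_001277989 of Meis3 matched the same annotated structure, so their separate values are uncertain. Of the 20 transcripts, 8 were called higher and 0 lower, against 10.2% and 8.67% of all transcripts. These 8 were the Meis1 and Meis2 transcripts.

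Hox genes were read beside their partners, in lists by paralogous group, the position along the clusters. The counts of this and the following lists stand against 16% of all genes called higher and 14.5% called lower. Of 12 genes of groups 1 to 4, 9 rose and 1 fell, with a median log2 fold change of 3.07. Hoxa4 rose from 0.0714 ± 0.000177 to 41.1 ± 0.669 FPKM (SD, n = 2, log2 fold change 7.91, limma, adjusted p = 0.00462) and Hoxa2 from 0.0658 to 20.4 FPKM (6.95). Hoxb2 was already at 6.78 FPKM at day 0 and rose to 40.1 FPKM (2.55). The gene that fell was Hoxd1, from 8.68 to 3.14 FPKM (-1.45). Its call was lost with the mix 4 vials alone (limma, adjusted p = 0.0580). Groups 1 to 4 also held 0 lower genes with the GC correction, against 24.1% of all genes. The same count came with rescaling to the library median, where 2797 of 20542 genes were called lower. Of 11 genes of groups 5 to 8, 7 rose and 0 fell (median 1.91), led by Hoxa5, from 0.357 to 85.4 FPKM (7.55), and Hoxc5, from 0.508 to 74.9 FPKM (6.96). Of 16 genes of groups 9 to 13, 4 rose and 2 fell (median -0.52). Among these, Hoxb13 rose from 0.0302 to 3.67 FPKM (4.87), Hoxa9 rose from 2.57 to 6.08 FPKM (1.21), Hoxd13 fell from 1.92 to 0.509 FPKM (-1.72), Hoxc13 fell from 0.153 to 0.0331 FPKM (-0.93), and Hoxd9 gave 6.70 and 5.26 FPKM (adjusted p = 0.236). Summed FPKM of groups 1 to 4 and of groups 5 to 8 were 192 and 228 at day 4, so that the Meis sum of 158 was of a similar size, against 28.3 for groups 9 to 13. With the replicate block, which called 22.5% of all genes higher and 29.1% lower, the counts of groups 1 to 4 stayed at 9 and 1, while 9 rose and 0 fell in groups 5 to 8 and 4 rose and 5 fell in groups 9 to 13. The added genes were Hoxa6 and Hoxa7, called higher, and Hoxc11, Hoxc12 and Hoxa13, called lower. Without the vials that stand apart, where 27% of all genes were called higher and 33.5% lower, 9 rose and 1 fell in groups 1 to 4, 8 rose and 0 fell in groups 5 to 8, and 4 rose and 5 fell in groups 9 to 13. These 5 were not the same genes as with the block. Hoxd9 was among them (log2 fold change -0.39, limma, adjusted p = 0.0348), while Hoxc11, Hoxc12 and Hoxa13 did not pass. Under both settings the counts of groups 9 to 13 were thus close to the shares over all genes.

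**Figure D5:**
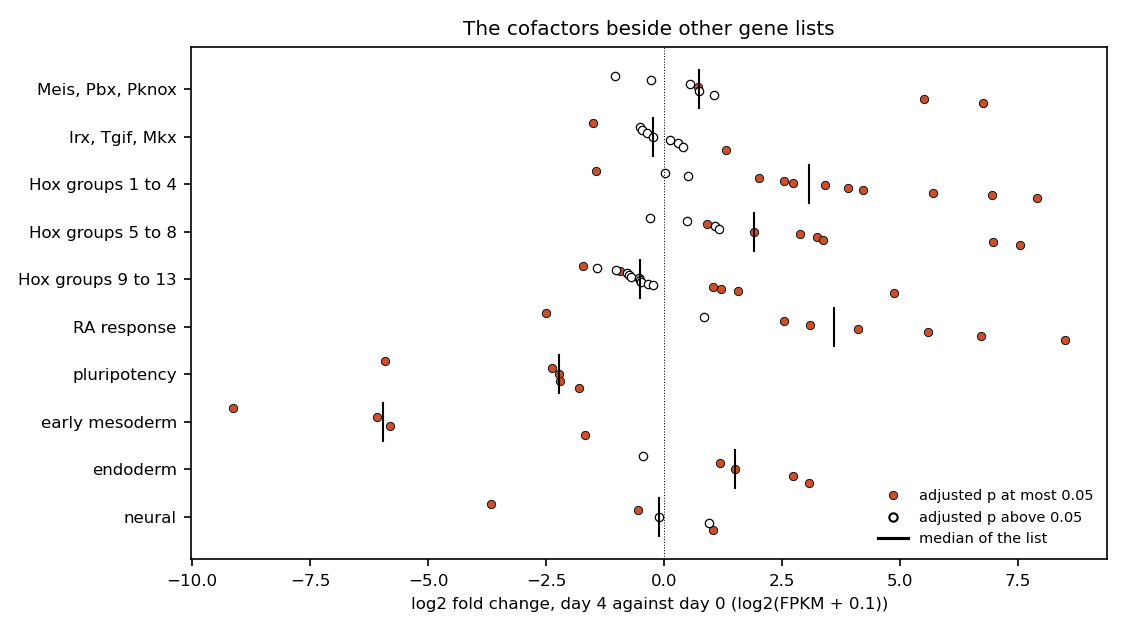
Log2 fold change, day 4 against day 0, of every gene of 10 lists. Filled points passed an adjusted p of 0.05 (limma), open points did not, and black lines are medians. Meis1 and Meis2, the 2 rightmost points of the first row, lie among the most increased genes of Hox groups 1 to 8, while the other 6 cofactor genes lie between -1.05 and 1.05.

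Other TALE genes, the Irx, Tgif and Mkx genes, served as a comparison within the same homeodomain class. Of 9, 1 rose and 1 fell, close to the 16% and 14.5% of all genes, with a median log2 fold change of -0.24 that turned to 0.52 with the GC correction, and both were low: Irx5 rose from 0.0910 to 0.374 FPKM (1.32, adjusted p = 0.0151 by limma) and Irx4 fell from 0.227 to 0.0143 FPKM (-1.50, adjusted p = 0.0177). The abundant Tgif1 gave 38.7 ± 1.58 and 27.2 ± 1.23 FPKM (SD, n = 2, adjusted p = 0.0622) and Tgif2 gave 22.6 ± 8.11 and 24.0 ± 0.831 FPKM (adjusted p = 0.739). Without the vials that stand apart 1 of the 9 rose and 3 fell, against 27% and 33.5% of all genes. Tgif1 was among those that fell there (log2 fold change -0.60, limma, adjusted p = 0.00695). Of 10 genes known as targets of Hox, Pbx or Meis complexes in other tissues, 5 rose and 2 fell (median 0.82). Hoxa2, Hoxb2 and Hoxb1 belong to this list as well as to the Hox list above, and of these Hoxb1 did not pass the test (0.397 and 0.403 FPKM, adjusted p = 0.946). Sst, the somatostatin gene, rose from 0.0275 to 12.6 FPKM (6.66, adjusted p = 0.00462). The genes that fell, Cyp17a1 (0.331 to 0.0621 FPKM) and Flt3 (0.0908 to 0.0180 FPKM), were low. With the replicate block 5 rose and 3 fell, the added gene being Epha8 (0.0728 and 0.00475 FPKM). Without the vials that stand apart 6 of these 10 genes rose and 3 fell.

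Of 8 genes of the RA response, 6 rose and 1 fell, with a median log2 fold change of 3.60. Rarb, an RA receptor gene that is itself induced by RA, rose from 0.195 ± 0.00707 to 107 ± 0.753 FPKM (SD, n = 2, log2 fold change 8.50, limma, adjusted p = 0.00462), and Dhrs3, which encodes an enzyme that reduces retinal, rose from 0.788 to 91.3 FPKM (6.72). The gene that fell was Cyp26a1, which encodes an enzyme that breaks down RA and is known as induced by it. It was the most abundant of the list at day 0 and gave 50.7 ± 2.46 and 8.88 ± 0.646 FPKM (SD, n = 2, log2 fold change -2.50, limma, adjusted p = 0.00474), with no overlap between the days. Crabp2, at 10.2 and 17.97 FPKM, missed the threshold (limma, adjusted p = 0.0853). It passed with the replicate block (adjusted p = 0.0110) and without the vials that stand apart (adjusted p = 0.0194). In either setting 7 of the 8 rose and 1 fell. Of all genes, 22.5% rose and 29.1% fell with the block, and 27% and 33.5% without those vials. The labels call the cells embryonic stem cells, and the 5 pluripotency genes were present at day 0 and all fell: Pou5f1 from 62.2 to 0.864 FPKM, Nanog from 6.23 to 1.26, Sox2 from 7.20 to 1.46, Zfp42 from 7.25 to 1.35 and Esrrb from 0.802 to 0.151. Pou5f1 was at 87.3 FPKM in day 0 RNA 1 but at 11.5 FPKM on average in the 2 vials that stand apart. With the mix 4 vials alone limma called 0 of the 5, against 6.88% of all genes. All of the 5 had lower values at day 4, and 4 had an unadjusted p under 0.05. The early mesoderm genes T and Mixl1 were also present at day 0, at 67.0 and 39.4 FPKM. They fell to 0.0190 and 0.482 FPKM, and the list of 4 mesoderm genes summed to 112 FPKM at day 0 and 0.524 FPKM at day 4.

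Markers of the cell types that EBs can form were read beside the cofactors. Some rose, some fell and others did not pass the test, and their part in the changes of Meis1, Meis2 and Pbx3 was not tested. Of 5 endoderm genes, 4 rose and 0 fell (summed FPKM 15.4 and 76.2): Gata6, the most abundant, rose from 6.36 to 54.4 FPKM (log2 fold change 3.08), Gata4 from 6.60 to 18.6 FPKM (1.50), Afp from 0.0201 to 0.773 FPKM (2.74) and Foxa2 from 0.307 to 0.825 FPKM (1.18). Sox17 did not pass the test (2.14 and 1.56 FPKM, log2 fold change -0.44, adjusted p = 0.303 by limma). Without a filter on low values, with the median of vials and with the mix 4 vials alone, 1 of the 5, Gata6, was called. These settings called 17.4%, 21.4% and 6.88% of all genes. Of 5 endothelial and blood genes, 0 rose and 3 fell (summed FPKM 82.1 and 35.0), namely Kdr, from 45.0 to 17.2 FPKM, Tal1, from 20.5 to 2.06 FPKM, and Gata1, from 1.56 to 0.214 FPKM. Pecam1 (9.80 and 11.6 FPKM, log2 fold change 0.27) and Cdh5 (5.25 and 3.91 FPKM, -0.38) overlapped between the days and did not pass the test (limma, adjusted p = 0.516 and 0.371). For Cdh5 the overlap came from the 2 vials that stand apart. Its other 6 day 0 libraries lay between 5.12 and 7.17 FPKM, and day 4 reached at most 4.23 FPKM. Without those vials Cdh5 was called lower (log2 fold change -0.58, adjusted p = 0.0239 by limma). Of 5 neural genes, 1 rose and 2 fell (summed FPKM 34.3 and 22.9). Pax6 rose but stayed low (0.130 and 0.372 FPKM), Sox1 and Tubb3 fell (0.113 to 0.0451 and 12.0 to 0.761 FPKM), and Nes and Map2 did not pass the test (20.8 and 19.3, and 1.22 and 2.40 FPKM), although Map2 was called higher with the replicate block (adjusted p = 0.0301 by limma). At day 4 Sox1, Pax6 and Tubb3 were thus below 1 FPKM, while Nes was at 19.3 and Map2 at 2.40 FPKM. The Pax6 call was lost without a filter on low values (limma, adjusted p = 0.0539) and with the mix 4 vials alone (0.246). Of 3 cardiac genes, 0 rose and 1, Myh6, fell (0.286 to 0.0107 FPKM), Nkx2-5 was at 0.207 FPKM and listed at 0 in all day 4 libraries, and Tnnt2 gave 1.05 and 1.51 FPKM. The Myh6 call lay at the threshold (limma, adjusted p = 0.0495). It was lost without a filter on low values (adjusted p = 0.126), with the median of vials (0.150) and with the mix 4 vials alone (0.413). With the replicate block Nkx2-5 was called lower as well (limma, adjusted p = 0.000515). The counts of the other TALE, pluripotency, mesoderm, endoderm, and endothelial and blood lists were the same with the block. Without the vials that stand apart, 27% of all genes rose and 33.5% fell. There 2 neural genes rose and 2 fell, 0 endothelial and blood genes rose and 4 fell, and 0 cardiac genes rose and 2 fell. The counts of the pluripotency, mesoderm and endoderm lists were the same as in the main fit.

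Genes whose pattern was most like that of each cofactor were ranked by Pearson's r of log2(FPKM + 0.1) over the 16 libraries, among 11602 genes with a mean of at least 1 FPKM. The 16 points fall into the 2 days and 4 RNA samples. Genes that share a large change between the days, or a large difference in the vials that stand apart, thus reach a high r. It is given as a description only. For Meis1 these were Sfrp1 (2.13 and 171 FPKM at day 0 and day 4), Lrrc7 (listed at 0, and 4.11 FPKM) and Mndal (0.00250 and 26.8 FPKM), with r of 0.9998, 0.9998 and 0.9996. For Meis2 they were Gata6, Alcam (0.549 and 196 FPKM) and Tsc22d1 (76.5 and 480 FPKM), with r of 0.9994 to 0.9992. For Pbx3 they were Tmem87b, Zfp354c and Ccny (r = 0.996 to 0.995), for Pknox1 Dcaf5, Dnmt3a and Tns3 (0.996 to 0.995), and for Pknox2 Rbm5 and Eci2 (0.993 and 0.992). For Meis3 they were Zfp512b, Chrac1 and Atp5o (0.995 to 0.994), and for Pbx2 Gpc2, Bag5 and Six5 (0.991 to 0.987). Atp5o gave 263 and 241 FPKM at day 0 and day 4. Meis3 itself gave 5.11 and 3.99 FPKM, and its lowest libraries were the 2 vials that stand apart, at 0.669 and 0.822 FPKM. The part of those vials in its r was not tested. Pbx4 had a mean below 1 FPKM and was not ranked.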

How the data were processed

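The authors mapped stranded, ribosomal RNA-depleted paired-end reads with Bowtie2 2.1.0 to RefSeq transcripts of mm10, estimated abundance with RSEM 1.2.18 and deposited FPKM scaled by a TMM factor per library (versions per the labels). All 16 columns matched a sample title. The replicate of each vial was taken from the study's sample table. Rows of synthetic RNAs (48) and 1 transcript affected by them were left out. The values were analysed with Python 3.11.15, pandas 2.3.3, R 4.3.3 and limma 3.58.1.

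FPKM were averaged over the 4 vials of an RNA sample and tested as log2(FPKM + 0.1) with lmFit and eBayes with a trend, 2 against 2, two-sided, with Benjamini-Hochberg adjustment over all genes or transcripts above 0 in any library and a threshold of 0.05. Symbols came from RefSeq (98.6% of rows matched) and GC content and exons from GENCODE M21 for GRCm38 (97.4%). The GC correction used medians in 20 bins.

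The study describes biological replicates from a repeat of the whole procedure, and differences between replicates 1 and 2 correlated between the days (r = 0.767 over 11602 genes). The log2 contrast of GC-rich with GC-poor transcripts also shifted the same way. At day 0 it lay between 2.53 and 2.76 in RNA 1 and between -2.44 and 2.06 in RNA 2. At day 4 it lay between -1.20 and -0.37 in RNA 1 and between -1.70 and -1.09 in RNA 2. This r alone therefore cannot show that the numbers pair the samples, which the replicate block assumes. The main fit has day as its only term. The study used the replicate as a term in its regression of spike-in amounts and states none for a test between the days, and the fit with the replicate block is given where it changes a call of a gene, of a list or of a transcript described here. All genes and transcripts of the family are named, and of each other list the 2 genes with the largest change and the 2 most abundant, with the pluripotency and neural lists whole. Hoxd1, Hoxc13, Hoxb1, Cyp17a1, Flt3, Cyp26a1, Foxa2, Sox17, Pecam1, Cdh5, Crabp2 and the genes called only with the block were named after their values were seen. The 3 genes most like each cofactor are named too, except 1 that is not reported here. The members and lists were chosen with earlier results of these data known. The fits were tested on simulated data, where the smallest changes simulated were not recovered and larger ones only in part, less often for transcripts than for genes. Far fewer genes and transcripts were changed there than were called here, so the simulation does not measure the power of these fits. A gene or transcript that misses the threshold may still have changed. Other pseudocounts, filters, scalings, vial summaries, a replicate block and left-out samples were tried (19 alternatives).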

Additional observations from a re-analysis of the deposited data

Results flagged for a closer look

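In each day's 8 libraries, the highest and lowest value of each gene and transcript was set against the other 7, in 51 such sets. A set was singled out where the gap to the nearest other library took up more of the range than Dixon's 95% critical value. Chance does this in about 1 in 20 sets of normally distributed values, but the libraries are vials of only 2 RNA samples. A set with only 1 library above 0 is always singled out, as were NM_001159569, NM_001159570 and NR_102730 below. The 8 genes gave 0 such values and their transcripts gave 7. Of these, 3 came from the mix 3 vial of day 0 RNA 2: NM_001193271 of Meis1 at 0.295 FPKM (others 0.550 to 0.720), NM_010789 of Meis1 at 0.393 FPKM (others 0 to 0.145) and NM_001159568 of Meis2 at 1.02 FPKM (others 0 to 0.405). Another 3 came from the mix 1 vial of day 0 RNA 1: NM_001159569 of Meis2 at 0.0450 FPKM and NM_001159570 of Meis2 at 0.0560 FPKM, where the others were all listed at 0, and NM_001277988 of Meis3 at 1.41 FPKM (others 0 to 0.485). The last was NR_102730 of Meis3, at 0.0930 FPKM in the mix 4 vial of day 4 RNA 1 and listed at 0 elsewhere at day 4.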

How the results depend on the processing

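Meis1 and Meis2 kept their direction in all 19 alternatives, with log2 fold changes of 5.69 to 7.11 and 4.84 to 5.83, and their calls in 17; the exceptions were the fits without day 4 replicate 1 or 2. Leaving out 1 RNA sample gave 0 to 4 of the 8 genes, 0 to 6 of their transcripts, 0 to 9215 genes, 0 to 7795 transcripts and 0 to 59 other listed genes called; the lone sample is then assumed to vary like the others. The counts of 0 by limma came without day 4 replicate 1 or 2 (4941 and 4720 genes and 5766 and 5476 transcripts at an unadjusted p under 0.05) and, for transcripts, without day 0 replicate 1 (11394). No other tool was run.

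Of the 8 genes and their 20 transcripts, 3 and 8 were called, beside 6253 genes (30.4% of those tested), 5321 transcripts (18.9%) and 56 other listed genes in all. The replicate block gave 6 of the 8 genes, 10609 genes (51.6%) and 10050 transcripts. The GC correction gave 7, 10550 (51.4%) and 10073, and with the replicate block 7, 11601 (56.5%) and 10513 (37.3%), with 15 of the family's transcripts. Without the mix 3 and mix 4 vials of day 0 RNA 2 the counts were 5, 12444 (60.6%) and 14423. The 16 libraries with the RNA sample as a random effect gave 6, 9429 (45.9%) and 10909, and rescaling to equal sums gave 5 of the 8 genes, against 32.1% of all genes. The mix 4 vials alone gave 1413 genes, 298 transcripts (1.06%), 3 of the family's transcripts and 29 other listed genes. Of the family's transcripts, 5 were called without a filter on low values, against 10.8% of all transcripts, and 5 with the median of vials, against 13.5%, and a minimum mean of 1 FPKM gave 4154 genes.

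Of the 8 genes and their transcripts, signs turned for Meis3 and 3 of its transcripts. The exon shares of Meis1 and Meis2 and the medians of the neural and other TALE lists, all without a test, turned as well under some settings. Meis3 went to 0.0463 with equal sums, to 1.203 with the GC correction and 1.203 with the block added, and to 0.84 with the mix 4 vials alone. Its range over left-out samples was -0.86 to 0.31. NM_008627 went to 0.90 with the GC correction, 0.90 with the block added and 0.44 with the mix 4 vials alone, and ranged from -1.02 to 0.0129 over left-out samples. NM_001277989 went to -0.33 without the 2 vials that stand apart and ranged from -0.42 to 0.58, and NM_001277988 went to -0.0419 with the median of vials and ranged from -0.66 to 2.05. The causes were not tested. With only FPKM in hand, the depth behind low transcripts is unknown, and values below 1 FPKM are the least certain.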
